A study of Mus musculus with 25 samples.

Results

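Retinas injected with vehicle alone were sequenced as 2 sets of 5 libraries, called vehicle set 2 and vehicle set 1 here, and set 2 was compared with set 1 gene by gene. These 10 libraries were chosen by their labels and are all the vehicle libraries among the 25 of the series. Every library came from retina of WT C57BL/6J mice, and both eyes had received 1 µL by intravitreal injection at postnatal day 30. Ceapin-A7, an inhibitor of the ER stress sensor ATF6, tunicamycin, a blocker of N-glycosylation, and AA147, an activator of ATF6, were given at 10 µM, with 5 libraries each. Both vehicle sets carry PBS as their treatment label, while the protocol names saline with DMSO at 0.05 to 0.1% as the control. Eyes were collected after 24 h, 3 d or 7 d according to the series text. The compound libraries carry 24 h in their column labels. No time is given for either vehicle set, so a difference in collection time between them cannot be told apart from the other differences. Whether the 5 libraries of a set came from 5 animals is not stated, so the p-values speak only to variation among libraries, part or all of which may be technical.

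A vehicle group receives the injection without the compound and gives the level against which a compound is read. The deposited values were FPKM, fragments scaled to transcript length and library size, so the value of a gene depends on its RNA and on the transcripts that the authors' annotation listed for it. Messenger RNAs with long 3′ untranslated regions (UTRs), neighbours that share exons and near-identical gene copies are the usual places where the assignment of fragments to genes differs between annotations. Zbed6, Glra1, Sntb2, Lnpep and Stxbp4 were the genes to be followed across both sets. Their products are a BED zinc-finger transcription factor encoded within an intron of Zc3h11a, the alpha-1 subunit of the glycine receptor, beta-2-syntrophin of the dystrophin complex, an insulin-regulated aminopeptidase of GLUT4 vesicles and a syntaxin-binding protein.

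The authors deposited 1 table per group, and the tables listed 2 different collections of genes. Vehicle set 2, Ceapin-A7 and tunicamycin were listed over the same 19102 genes, and vehicle set 1 and AA147 over the same 18676 genes. These are called the set 2 table family and the set 1 table family below. Depth, a rough estimate from the spacing of low values, was 21.8 to 23.6 M fragments in set 2 and 24.0 to 25.2 M in set 1. Genes at 1 FPKM or more numbered 12635 to 12871 per library in set 2 and 12584 to 12752 in set 1. Rod markers were the most abundant of the marker lists in every vehicle library, with list means of log2(FPKM + 1) at 9.14 to 9.58 in set 2 and 9.51 to 9.61 in set 1.

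Libraries stood apart in 2 ways that the labels do not give. Ddx3y, an RNA helicase gene of the Y chromosome, had 0, 0, 0, 0 and 16.3 FPKM in libraries 1 to 5 of set 2, against 13.03, 10.9, 11.8, 12.4 and 11.3 FPKM in set 1. All 4 Y-linked genes tested were called as lower in set 2. They lay under 1 FPKM in 4 of 5 libraries of set 2 and in 0 of 5 of set 1, so the share of Y-negative libraries differed between the sets. In Ceapin-A7 and AA147 it did not differ, with 2 of 5 such libraries in each. The second way was that libraries 4 and 5 of set 2 had high stress and low rod values, and several lists are given with and without them. They were set apart by these same values. How the stress and rod lists change without them therefore follows in part from that choice.

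Vehicle set 2 differed from vehicle set 1 at a large share of genes, mostly by small amounts. Of 12755 genes tested, 3278 (25.7%) were higher and 2560 (20.1%) were lower in set 2, 5838 in all (45.8%), at an adjusted p under 0.05 in limma with Benjamini-Hochberg adjustment over all genes. A gene was tested if both tables listed it and 5 or more of the 10 libraries reached 1 FPKM, and the scale was log2(FPKM + 1), which understates the change of low genes. The median absolute difference was 0.16 log2, and the median SD of a gene over libraries was 0.11 within set 2 and 0.08 within set 1. At 4348 genes (34.1%) the 5 values of set 2 did not overlap the 5 of set 1. A gene under 1 FPKM in all 5 libraries of a set passed the filter only if all 5 of the other set reached 1 FPKM. For such genes, Zbed6, Glra1 and Lnpep among them, the filter itself fixed that the sets do not overlap. A further division by size gave few genes. By this rule 43 genes (0.337%) were called as higher and 34 (0.267%) as lower by at least 1 log2. Past 2 log2 there were 4 higher genes (0.0314%), Zbed6, Glra1, Sntb2 and Lnpep, and 5 lower ones (0.0392%), LOC118568718 and the 4 Y-linked genes. The first principal component of the 10 libraries carried 44.4% of the variance and separated the sets. Without libraries 4 and 5 of set 2 the count was 5997 (47%), and 5147 of these were among the 5838 with the same direction. With the level of the Y-linked genes as a covariate 3874 genes passed (30.4%), 2466 higher and 1408 lower, and 3249 of them were among the 5838. In set 2 only library 5 holds Y-linked RNA, so counts with this covariate, here and below, rest largely on it. Library 5 is also among the libraries with high stress and low rod values.

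Zbed6 had the largest positive difference of all genes called. It had 12.97, 14.04, 12.79, 13.63 and 12.18 FPKM in libraries 1 to 5 of set 2, against 0.42, 0.38, 0.52, 0.25 and 0.33 FPKM in set 1. The sets did not come near each other, and the ratio of the mean FPKM values was 34.5. The difference was 3.36 ± 0.06 log2 (SE, adjusted p = 4.95e-11 in limma). Zc3h11a, the zinc-finger gene in which Zbed6 lies, had 47.4, 48.8, 45.5, 51.8 and 51.99 FPKM in set 2, against 46.7, 45.6, 43.8, 45.7 and 40.9 FPKM in set 1. Its values overlapped between the sets, and its difference was 0.14 ± 0.05 log2 (adjusted p = 0.041 in limma).

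Glra1, whose product carries fast inhibitory current in the retina and spinal cord, had 7.04, 6.88, 7.23, 7.13 and 6.56 FPKM in set 2. In set 1 it had 0.52, 0.73, 0.39, 0.51 and 0.44 FPKM. No library of set 2 came within reach of set 1, and the difference was 2.40 ± 0.07 log2 (adjusted p = 8.54e-10 in limma). The receptor's other alpha subunits differed in both directions. Glra3 had 5.02 ± 0.381 FPKM in set 2 and 2.65 ± 0.277 FPKM in set 1 (SD, n = 5 each; 0.72 log2), and Glra2 had 4.93 ± 1.15 FPKM in set 2 and 7.73 ± 0.547 FPKM in set 1 (-0.58 log2). Both passed the test without overlap of the sets.

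Sntb2 had 15.9, 16.03, 15.5, 15.5 and 13.6 FPKM in set 2, against 2.18, 2.42, 2.52, 2.17 and 2.33 FPKM in set 1. The lowest library of set 2 was far above the highest of set 1, and the difference was 2.29 ± 0.06 log2 (adjusted p = 2.54e-10 in limma). Its paralog Sntb1 was lower in set 2, with 3.64 ± 0.604 FPKM in set 2 and 6.51 ± 0.51 FPKM in set 1 (-0.70 log2). Dmd, which encodes dystrophin, was also lower, at 12.8 ± 1.07 FPKM in set 2 and 19.4 ± 1.34 FPKM in set 1. Of the 13 tested genes of the dystrophin complex list, 3 were higher (23.1%) and 2 lower (15.4%) in set 2, beside 25.7% and 20.1% of all genes. The list's median was 0.03 log2 against 0.03 over all genes.

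Lnpep had 7.74, 7.01, 6.73, 7.79 and 4.35 FPKM in set 2, against 0.78, 0.62, 0.78, 0.83 and 0.61 FPKM in set 1. Library 5 of set 2 was the lowest of its set and still above all of set 1. The difference was 2.14 ± 0.12 log2 (adjusted p = 3.7e-07 in limma).

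Stxbp4 went the other way. It had 6.01, 6.07, 6.12, 6.40 and 6.19 FPKM in set 2, against 25.8, 29.1, 26.1, 25.8 and 22.5 FPKM in set 1. Every library of set 2 lay below every library of set 1, with a difference of -1.90 ± 0.06 log2 (adjusted p = 1.94e-09 in limma). Snap25, a SNARE protein of synaptic vesicle fusion and one of the most abundant neuronal transcripts, had 334, 271, 322, 321 and 382 FPKM in set 2, against 840, 829, 876, 883 and 843 FPKM in set 1. Its sets did not overlap either, at -1.40 ± 0.08 log2 (adjusted p = 3.02e-07 in limma). In the list of syntaxin-binding and SNARE genes 5 of 22 were higher (22.7%) and 8 lower (36.4%), beside 25.7% and 20.1% of all genes.

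**Figure D1:**
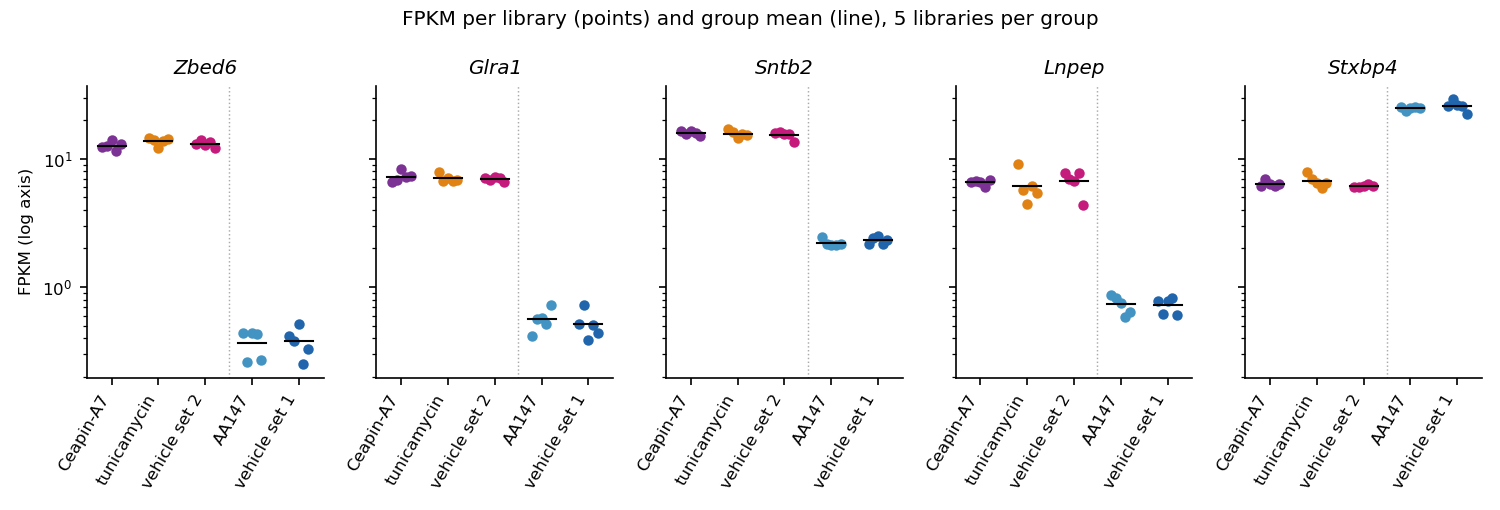
FPKM of Zbed6, Glra1, Sntb2, Lnpep and Stxbp4 in each of the 25 libraries (points, log axis) with the group means (lines), set 2 table family left of the dotted line and set 1 table family right of it. Zbed6 lies between 11.4 and 14.6 FPKM in all libraries of the set 2 family and between 0.25 and 0.52 FPKM in the set 1 family.

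The same 5 genes kept these levels in the libraries that received a compound. Zbed6 averaged 12.7 ± 0.894 FPKM with Ceapin-A7, 13.7 ± 0.907 FPKM with tunicamycin and 0.368 ± 0.0942 FPKM with AA147 (SD, n = 5 each). Stxbp4 had 6.12, 6.96, 6.34, 6.13 and 6.31 FPKM with Ceapin-A7, against 25.2, 23.6, 24.7, 25.5 and 24.7 FPKM with AA147. Both compound groups thus lay at the level of the vehicle set of their own table family. Lnpep spread most within the set 2 family, at 4.44 to 9.11 FPKM with tunicamycin. Over the 25 libraries the genes most like Zbed6 by Pearson correlation of log2(FPKM + 1) were Sntb2, Glra1 and Elk4 (r = 0.998, 0.995 and 0.995). For Glra1 they were Sntb2, Zbed6 and Sesn3 (0.996, 0.995 and 0.993), and for Sntb2 they were Zbed6, Glra1 and Dnajb14 (0.998, 0.996 and 0.995). Dnajb14, Zfp804b and Sntb2 were most like Lnpep (0.992, 0.99 and 0.988), and Gm17768, Ces2b and Vmn1r58 most like Stxbp4 (0.994 each). The 25 libraries fall into the 2 families, so these values describe the step between families and have no p.

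Beyond the 4 higher genes above, the genes of largest positive difference were Sesn3, Elk4, Klhl11, Zfp804b, Tnks, LOC118568297, Kcna3 and Tnpo1, at 1.65 to 1.98 log2. Sesn3 encodes a sestrin that restrains mTORC1, and it averaged 19.0 ± 1.45 FPKM in set 2 and 4.10 ± 0.728 FPKM in set 1. Tnks, a poly-ADP-ribosyltransferase of telomeres and Wnt signalling, had 15.4, 16.1, 15.7, 16.3 and 15.4 FPKM in set 2, against 4.92, 4.38, 3.87, 3.60 and 3.94 FPKM in set 1. Tnpo1, a nuclear import receptor, was the most abundant of them at 77.2 ± 16.3 FPKM in set 2 and 23.7 ± 3.47 FPKM in set 1. Elk4, an ETS-domain transcription factor, averaged 5.24 ± 0.631 FPKM in set 2 and 0.664 ± 0.0631 FPKM in set 1. Kcna3, a voltage-gated potassium channel, averaged 3.33 ± 0.462 FPKM in set 2 and 0.356 ± 0.0297 FPKM in set 1.

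The largest difference of either sign belonged to LOC118568718, a predicted gene with no annotated role in the sources used here. It had 6.31, 7.79, 6.09, 7.04 and 8.66 FPKM in set 2, against 1087, 1762, 1060.0, 947 and 956 FPKM in set 1. The sets did not overlap, and the mean of set 1 was 162 times that of set 2 (-7.12 ± 0.16 log2, adjusted p = 1.37e-10 in limma). With Ceapin-A7 it had 6.20 to 7.82 FPKM and with AA147 982 to 1223 FPKM. Among genes whose libraries did not overlap, Gm17768, F830016B08Rik, Stxbp4, LOC115488029, Vmn1r58, H2bc4, Psg16, Gm39701, Tmem45b, Epas1 and Snap25 came next, at -1.93 to -1.40 log2. Epas1, the hypoxia-inducible factor HIF-2 alpha, had 18.1, 10.7, 15.9, 19.6 and 15.2 FPKM in set 2, against 46.2, 45.7, 41.6, 40.2 and 45.4 FPKM in set 1. It fell by 1.43 log2. In its list 2 of 14 hypoxia genes were higher and 2 lower (14.3% each, beside 25.7% and 20.1% of all genes), with a median of 0.01 log2. Without libraries 4 and 5 of set 2 the list had 0 higher and 5 lower. H2bc4, a histone H2B gene with near-identical copies, averaged 112 ± 21.5 FPKM in set 2 and 314 ± 23.6 FPKM in set 1. Its value is uncertain where fragments could be assigned to more than 1 copy, and so are those of the genes with LOC, Gm or pseudogene names.

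Ceapin-A7 and AA147 libraries belong to different table families and share no library with the vehicle sets, so they gave the family difference again in separate libraries. Compound and family cannot be told apart in that comparison. There 3973 genes (31.1%) were higher and 3477 (27.3%) lower with Ceapin-A7, 7450 in all (58.4%). Of the 5838 genes called between the vehicle sets, 5069 (86.8%) were called the same way, which is 68.0% of the 7450, and 4 were called the opposite way. Across the 12755 genes the differences had a Pearson correlation of 0.81 and a Spearman correlation of 0.83, as a description over genes that are not independent. All 24 genes of largest difference without overlap of the vehicle sets, named above, were called the same way. Their sizes were 1.41 to 3.32 log2 for the higher ones and 1.19 to 7.03 log2 for the lower ones. The 4 Y-linked genes, whose values overlapped between the vehicle sets, were not called there. Among the 77 genes called past 1 log2 between the vehicle sets, 73 had the same sign and 70 were called the same way. The 4 of opposite sign, Ddx3y, Kdm5d, Uty and Junb, were 3 Y-linked genes and an immediate early gene, picked out after their values were seen. In the 3 libraries of each compound that held Y-linked RNA, a comparison added after the data were seen, 5676 genes were called (44.5%), and 4287 of the 5838 vehicle calls were called the same way and 4 the opposite way.

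**Figure D2:**
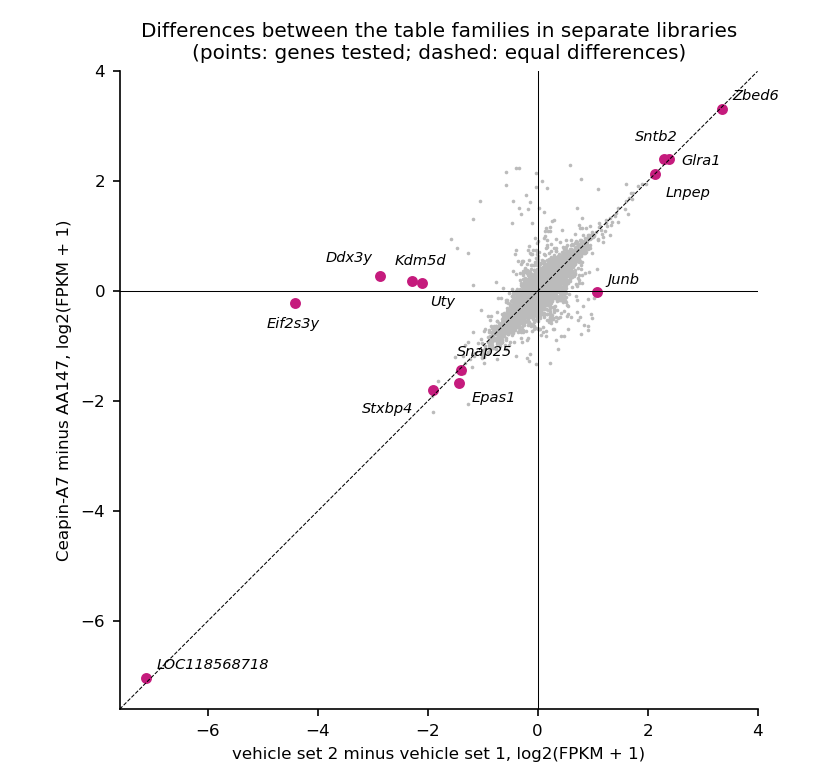
Difference of each of 12755 genes between vehicle set 2 and vehicle set 1 (x axis) and between Ceapin-A7 and AA147 (y axis), both in log2(FPKM + 1), with named genes in colour. Zbed6, Glra1, Sntb2, Lnpep, Stxbp4, Snap25, Epas1 and LOC118568718 lie near the dashed line of equal differences, while Junb and the Y-linked genes lie near 0 on the y axis.

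Whether the difference between the families had the same size in vehicle and in compound libraries was tested in a single contrast. No compound occurs in both families, so equal shifts by Ceapin-A7 and AA147 would cancel in it. It cannot decide whether the family difference depended on what was injected. In a model of 4 groups, Ceapin-A7 against vehicle set 2 minus AA147 against vehicle set 1 gave 0 genes at an adjusted p under 0.05 in limma, 1090 at an unadjusted p under 0.05, and a smallest adjusted p of 0.548. For Zbed6 this difference of differences was -0.04 ± 0.09 log2 and for Glra1 0.01 ± 0.09 log2 (SE). Ceapin-A7 and AA147 were each also compared with the vehicle set of their own family. Tunicamycin, the other compound of the set 2 family, is not covered by these comparisons. Ceapin-A7 against vehicle set 2 gave 0 genes (1376 at an unadjusted p under 0.05) with a median absolute difference of 0.06 log2. AA147 against vehicle set 1 gave 0 genes (474 at an unadjusted p under 0.05) with a median absolute difference of 0.04 log2. These comparisons within a family were added after the data were seen, and a p that misses the threshold does not show that the groups were alike. They set compound libraries labelled 24 h against vehicle libraries without a stated time.

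Over all genes the difference followed 3′ UTR length and the base composition of the transcript. Its rank correlation with total transcript length was 0.07, although 46.3% of the quintile of longest transcripts were higher. GENCODE annotation was found for 12588 of the tested genes (98.7%), and genes were divided into quintiles of each feature. In the quintile of longest 3′ UTRs, 2729 bases and over, 1185 of 2513 genes were higher in set 2 (47.2%) and 270 lower (10.7%), with a median of 0.15 log2. In the quintile of shortest 3′ UTRs 464 were higher (18.5%) and 651 lower (25.9%), with a median of -0.02 log2. GC content ran the opposite way. Of the 2518 genes of lowest transcript GC, 1160 were higher (46.1%) and 201 lower (8.0%), with a median of 0.15 log2. Of the 2518 of highest GC, 406 were higher (16.1%) and 758 lower (30.1%), with a median of -0.06 log2. Over genes, Spearman's correlation with the difference was 0.22 for 3′ UTR length and -0.30 for GC content. For Ceapin-A7 minus AA147 it was 0.16 and -0.36.

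Long 3′ UTRs and low GC content occurred together and were then crossed. The 3′ UTR was that of a gene's longest coding transcript, and GC content that of its longest transcript of any type. The features crossed can thus come from different transcripts of a gene. Among 874 genes in the top quintile of 3′ UTR length and the bottom quintile of GC content, 591 were higher (67.6%) and 39 lower, with a median of 0.27 log2. With long 3′ UTRs and high GC content, 13 of 111 genes were higher and 32 lower, with a median of -0.08 log2. Short 3′ UTRs with low GC content gave 77 of 255 higher and 27 lower, at a median of 0.07 log2. Short 3′ UTRs with high GC content gave 144 of 843 higher and 272 lower, at -0.06 log2. Within the top quintile of GC content, long 3′ UTRs thus had no higher median than short ones. In Ceapin-A7 minus AA147 the medians of these 4 classes were 0.26, -0.12, 0.13 and -0.07 log2. The 3′ UTR, GC and coding-length classes were added after the data were seen.

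Among genes called as higher by at least 0.5 log2 (537, 4.21% of all tested), 254 of the 513 with annotation fell in the top quintile of 3′ UTR length (49.5%). Among those lower by that much (357, 2.8%), 43 of 329 did (13.1%). Of the 12 genes of largest positive difference, 6 of the 11 with a 3′ UTR length were in that quintile. They were Sntb2 and Lnpep (8333 and 8342 bases), Sesn3 (7398), Tnpo1 (5640), Tnks (5178) and Elk4 (2800). Dnajb14, an ER-anchored cochaperone, had 8.09 kb of annotated 3′ UTR and averaged 17.3 FPKM in set 2 and 5.59 FPKM in set 1. Other genes of the same size of difference had short annotated 3′ UTRs, with 779 bases for Zbed6, 578 for Glra1, 253 for Klhl11, 64 for Kcna3 and 23 for Zfp804b. Stxbp4 was lower with 4111 bases. The annotation was of GRCm38, an earlier build than the authors' GRCm39, so these lengths may differ from those behind the FPKM values.

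Total transcript length showed no single trend. The quintile of longest transcripts had 46.3% higher and 15.6% lower with a median of 0.14 log2, the shortest 26.4% higher and 14.5% lower with 0.07 log2, and the middle quintile 15.6% higher and 23.8% lower with -0.02 log2. Short coding sequences had a positive offset, with 914 of 2513 higher (36.4%) and 234 lower (9.3%) in the lowest quintile and a median of 0.12 log2. In the highest quintile of coding length 731 were higher and 718 lower. Spearman's correlation of the difference with the gene's span on the chromosome was 0.03.

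In the quintile of most annotated isoforms, 578 of 2518 genes were higher (23.0%) and 707 lower (28.1%), with a median of -0.03 log2. With the Y-linked covariate 467 were higher and 372 lower, with a median of 0.0046 log2. Over all genes that fit gave 2466 higher and 1408 lower, with a median of 0.045 log2, so the class still lay below all genes. In the quintile of fewest, 714 were higher (28.4%) and 349 lower (13.9%), with a median of 0.07 log2. Smarca2, a chromatin remodelling ATPase with 46 annotated transcripts, averaged 41.6 FPKM in set 2 and 92.5 FPKM in set 1 (-1.14 log2). Genes whose longest annotated transcript had 1 exon had 30.8% higher, 14.5% lower and a median of 0.08 log2. Their other transcripts may hold more exons, so this class, called 1 exon below, is not only single-exon genes.

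**Figure D3:**
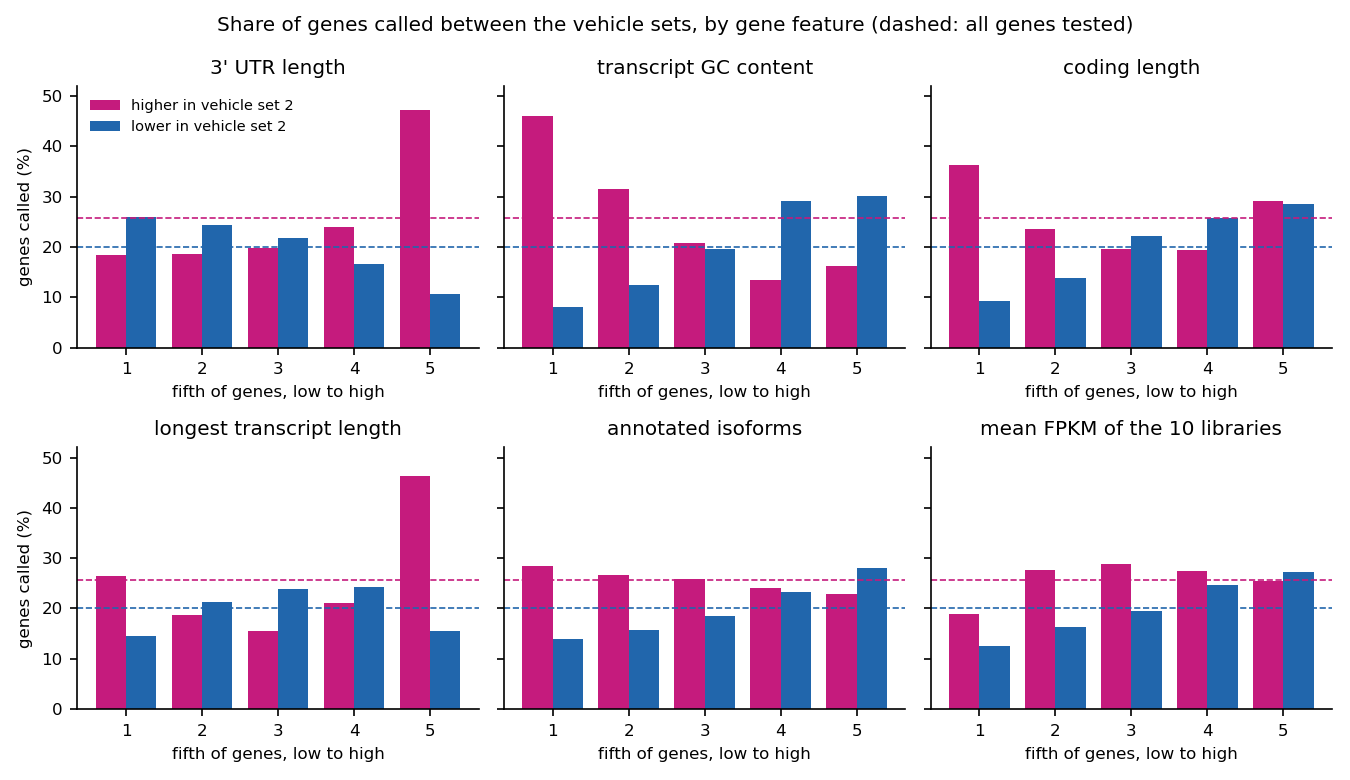
Share of genes called as higher (left bars) or lower (right bars) in vehicle set 2 than in vehicle set 1, by quintile of 6 gene features from low to high, with the shares over all genes as dashed lines (25.7% and 20.1%). The longest 3′ UTRs (47.2% higher) and the lowest GC content (46.1% higher) stand above the other quintiles of their panels.

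Host genes and genes inside other genes had medians near 0 as deposited, where all genes had 0.03 log2. Of 183 genes lying inside a coding gene on the same strand, 37 were higher and 33 lower (38.3% called, beside 45.8% of all genes), with a median of 0.00 log2, which was -0.028 log2 after median-ratio scaling and -0.043 log2 after quantile normalization. Genes that held such a gene gave 28 higher and 17 lower of 133 (33.8%). Genes that held a small RNA gave 228 higher and 219 lower of 863 (51.8%), also with a median of 0.00 log2. Of 266 tested pairs of an inner gene and its host, with 81 inner genes, both members were called in 15 and in opposite directions in 6. Most of the 266 pairs, and most of the 6, joined clustered protocadherins. The same genes recur in these pairs, so the counts say little about other host genes. Zbed6 and Zc3h11a were 1 of the 9 pairs in the same direction. The clustered protocadherins Pcdhga12, Pcdhgb4 and Pcdhgb6 were lower within Pcdhga3, which was higher. Members of that cluster share their 3′ exons, so the fragments of 1 member cannot be told from another's there.

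Predicted genes had large differences of both signs. Among 65 tested genes with a LOC name, 22 were higher and 22 lower (67.7% called, beside 45.8% of all genes). Of these 65 genes, 41.5% differed by at least 0.5 log2, beside 7.44% of all genes. Among 116 with a Gm name, 34 were higher and 33 lower (57.8%), and 24.1% differed by that much. Their medians were 0.05 and -0.01 log2, so they spread in both directions. Of 13 pseudogenes tested, 2 were higher and 5 lower (53.8% called, beside 45.8% of all genes), with a median of -0.16 log2. Rps15a-ps5, a ribosomal protein pseudogene, averaged 13.2 FPKM in set 2 and 34.7 FPKM in set 1 (-1.33 log2), and Llph-ps2 averaged 4.54 FPKM in set 2 and 10.2 FPKM in set 1 (-1.03 log2). Of the 77 genes past 1 log2, 9 of the 43 higher and 6 of the 34 lower had LOC names. By level, the share called was 31.6% in the quintile of lowest mean FPKM and 52.6% in the highest, where 648 genes were higher and 695 lower.

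Genes listed in 1 table family alone could not be tested. The set 2 table listed 662 of them, of which 553 were at 0 in all 5 libraries and 0 reached a mean of 1 FPKM. Olfactory receptor genes made up 108 of them. The set 1 table listed 236, of which 156 were at 0 throughout and 2 reached a mean of 1 FPKM. One was Gm20594, with 424, 484, 482, 507 and 485 FPKM in set 1 and 403 to 546 FPKM with AA147. The other was Gm46399, at 0.43 to 3.79 FPKM in set 1.

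Stress genes are described list by list, beside shares over all genes of 25.7% higher and 20.1% lower, and no test compared the lists. ATF6 targets and ER chaperones were mostly lower in set 2, with 9 of 17 tested lower (52.9%) and 1 higher and a median of -0.22 log2. With the Y-linked covariate 5 were lower and 1 higher. Calr, the ER lectin chaperone calreticulin, had 211, 204, 200.03, 215 and 246 FPKM in set 2, against 373, 404, 312, 329 and 309.5 FPKM in set 1. The sets did not overlap (-0.68 ± 0.08 log2, adjusted p = 5.83e-05 in limma). Creld2, Hsp90b1 and Hyou1, further ER chaperones and cochaperones, were lower by 0.59, 0.53 and 0.49 log2 in size. Hspa5, the ER chaperone BiP, had 110.2, 109.9, 106, 138 and 162 FPKM in set 2, against 187, 182, 136, 141 and 135 FPKM in set 1. These values overlapped, and its -0.32 ± 0.13 log2 did not pass (adjusted p = 0.072 in limma). Without libraries 4 and 5 of set 2 the list's median was -0.29 log2, again with 9 lower and 1 higher, and in Ceapin-A7 minus AA147 it was -0.25 log2, with 10 lower and 3 higher.

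IRE1-XBP1 targets and ER translocation genes were mostly higher in set 2, with 9 of 16 higher (56.2%), 1 lower and a median of 0.21 log2. Ssr1, a subunit of the translocon-associated complex, averaged 29.8 ± 1.29 FPKM in set 2 and 21.5 ± 0.732 FPKM in set 1. Spcs2 of the signal peptidase averaged 45.9 ± 0.835 FPKM in set 2 and 33.5 ± 2.28 FPKM in set 1. The list's median was 0.16 log2 without libraries 4 and 5, and 0.16 log2 in Ceapin-A7 minus AA147.

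PERK-ATF4 targets were high in libraries 4 and 5 of set 2. The mean log2(FPKM + 1) of the 24 tested genes was 3.92, 3.74, 3.75, 4.62 and 4.75 in libraries 1 to 5 of set 2, against 3.79, 3.66, 3.70, 3.79 and 3.80 in set 1. Of these genes 6 were higher (25%, beside 25.7% of all genes), 0 lower, and the median was 0.35 log2. With the Y-linked covariate 20 were higher and 0 lower. That fit rests largely on library 5, which had the highest list mean. Chac1, a glutathione-degrading enzyme induced by ATF4, had 3.54, 3.57, 5.09, 19.7 and 13.9 FPKM in set 2, against 2.95, 2.42, 3.47, 2.97 and 2.74 FPKM in set 1 (adjusted p = 0.037 in limma). Atf3, a stress-induced transcription factor, had 6.37, 6.40, 4.86, 28.6 and 20.7 FPKM in set 2, against 8.81, 3.37, 4.98, 5.95 and 6.24 FPKM in set 1. It did not pass (0.80 ± 0.43 log2, adjusted p = 0.15 in limma). Without libraries 4 and 5 the list had 5 genes higher, 3 lower and a median of 0.09 log2. In Ceapin-A7 minus AA147 the median was 0.08 log2.

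Immediate early genes were likewise highest in libraries 4 and 5, but the same 8 of 18 were called as higher with and without these libraries. The list mean was 3.69, 3.33, 3.51, 3.93 and 3.88 in set 2, against 3.31, 3.35, 3.41, 3.33 and 3.21 in set 1. With all libraries 8 were higher and 1 lower, with a median of 0.41 log2, and without libraries 4 and 5 8 were higher and 3 lower, with 0.23 log2. In Ceapin-A7 minus AA147 the median was 0.07 log2, with 6 higher and 5 lower. Junb, an AP-1 subunit, had 24.5, 16.7, 17.6, 68.2 and 45.1 FPKM in set 2, against 19.1, 10.4, 12.95, 14.5 and 11.8 FPKM in set 1. Its difference between Ceapin-A7 and AA147 was -0.02 log2. Ier2, a rapidly induced nuclear gene, had 18.3 to 26.9 FPKM in set 2 and 10.9 to 16.6 FPKM in set 1, without overlap.

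Cytosolic heat shock genes had 2 of 18 higher and 6 lower, with a median of -0.08 log2 (0.11 log2, with 3 higher and 1 lower, under the Y-linked covariate). Without libraries 4 and 5 of set 2 the median was -0.17 log2, with 1 higher and 9 lower. Hsp90ab1, a constitutive HSP90, averaged 282 ± 28.3 FPKM in set 2 and 387 ± 17.9 FPKM in set 1. Of 19 NRF2 oxidative stress genes 5 were higher and 3 lower (median 0.11 log2), and of 11 apoptosis and p53 genes 5 were higher (45.5%) and 1 lower (0.27 log2). The mean of the apoptosis and p53 list was 3.31, 3.24, 3.25, 3.73 and 3.73 in set 2, against 3.17 to 3.31 in set 1. Libraries 4 and 5 were again the high ones, and without them its median was 0.14 log2, with 5 higher and 1 lower. The lower one was Mdm2, the ubiquitin ligase of p53, at 13.4 ± 2.15 FPKM in set 2 and 25.4 ± 0.934 FPKM in set 1. Glucocorticoid-induced genes had 2 of 13 higher and 1 lower (0.08 log2, and 0.02 log2 without libraries 4 and 5), and sterol synthesis genes 7 of 19 higher and 2 lower (-0.01 log2).

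**Figure D4:**
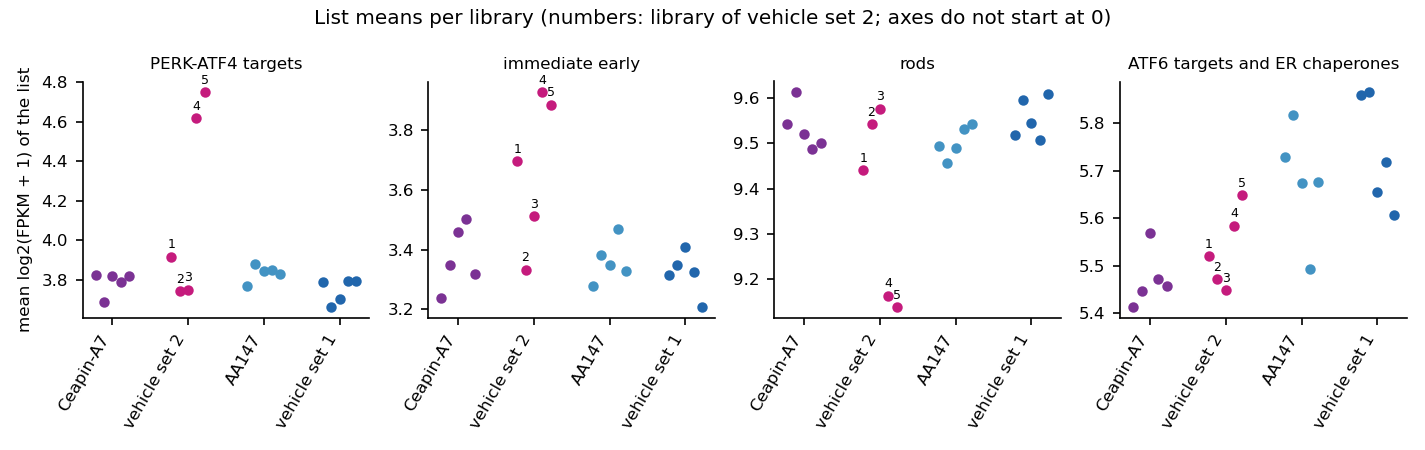
Mean log2(FPKM + 1) of 4 gene lists in each library of Ceapin-A7, vehicle set 2, AA147 and vehicle set 1, with the library numbers of set 2 beside its points and axes that do not start at 0. Libraries 4 and 5 of set 2 stand apart for PERK-ATF4 targets (4.62 and 4.75) and for rod genes (9.16 and 9.14).

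Rod genes were lower in set 2 with all libraries. Without libraries 4 and 5, which were set apart in part by their low rod values, rod genes were at the level of set 1. The mean over the 24 rod genes was 9.44, 9.54, 9.58, 9.16 and 9.14 in set 2, against 9.52, 9.60, 9.55, 9.51 and 9.61 in set 1. Of these genes 2 were higher and 8 lower, with a median of -0.18 log2, while without libraries 4 and 5 4 were higher and 5 lower, with a median of 0.0018 log2. In bulk RNA, fewer rods and less RNA per rod cannot be told apart. Sag, the rod arrestin, had 1834, 2288, 2113, 1406 and 1285 FPKM in set 2, against 2759.9, 2757, 2438, 2415 and 2552 FPKM in set 1. It was lower in set 2 in every library (-0.57 ± 0.15 log2, adjusted p = 0.0086 in limma) and also by 0.32 log2 without libraries 4 and 5. Rp1, a photoreceptor microtubule protein, went the other way at 235 ± 21.7 FPKM in set 2 and 186 ± 8.03 FPKM in set 1.

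The counts for other retinal cell types stand beside 25.7% higher and 20.1% lower over all genes. Of 14 cone genes 1 was higher and 2 lower (median -0.06 log2), of 20 bipolar genes 7 were higher and 4 lower (0.04 log2), of 22 amacrine genes 5 were higher and 7 lower (-0.08 log2), and of 7 horizontal cell genes 1 was higher and 2 lower (-0.13 log2). Without libraries 4 and 5 of set 2 the cone genes had 3 higher and 1 lower, with a median of -0.01 log2. With the Y-linked covariate the amacrine genes had 5 higher and 0 lower, and the horizontal cell genes 1 higher and 0 lower. Nyx and Grm6, both of the ON bipolar synapse, differed in opposite directions. Nyx averaged 8.23 ± 0.479 FPKM in set 2 and 4.80 ± 0.13 FPKM in set 1, and Grm6, the mGluR6 receptor, averaged 43.1 ± 4.58 FPKM in set 2 and 61.6 ± 1.56 FPKM in set 1. Ganglion cell genes had 2 of 22 higher (9.1%) and 7 lower (31.8%; -0.06 log2), but 6 higher and 1 lower with the Y-linked covariate. The largest fall was in Nefm, a neurofilament subunit, at 53.3 ± 9.98 FPKM in set 2 and 88.3 ± 5.12 FPKM in set 1. Muller glia genes had 1 of 18 higher and 1 lower (-0.03 log2), and reactive gliosis genes 0 of 20 in either direction at an adjusted p under 0.05 in limma (2 at an unadjusted p under 0.05). The median of the gliosis genes was 0.14 log2 between the vehicle sets, -0.12 log2 without libraries 4 and 5 of set 2, and -0.52 log2 in Ceapin-A7 minus AA147, where 11 were lower.

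Among cells outside the neural retina, lens genes varied most, although the lens had been removed. Their list mean ran from 0.97 to 6.94 in set 2 and from 3.01 to 5.83 in set 1, and 0 of 21 were called (0 also at an unadjusted p under 0.05). Counts of these lists stand beside 25.7% higher and 20.1% lower over all genes. Erythrocyte genes had 0 of 6 higher and 2 lower (Hbb-bs and Hba-a1; 0 without libraries 4 and 5 of set 2), and pigment epithelium genes 3 of 14 higher and 0 lower. Microglia and macrophage genes had 3 of 18 higher and 1 lower, endothelial genes 2 of 17 higher and 0 lower, and pericyte and smooth muscle genes 0 of 9 higher and 1 lower. Axon injury genes had 1 of 9 higher and 0 lower, with a median of 0.09 log2, and 1 higher and 3 lower, with -0.09 log2, without libraries 4 and 5 of set 2, and fibroblast and matrix genes 0 of 10 higher and 2 lower. In the lists of cytokines, of interferon and antigen presentation, and of ciliary body and iris, 0 of 5, 0 of 22 and 0 of 6 passed in limma, and 0, 2 and 1 had an unadjusted p under 0.05. Lists of neutrophils, cornea and conjunctiva, mitochondrially encoded genes and nuclear-retained long RNAs had 0 genes tested.

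**Figure D5:**
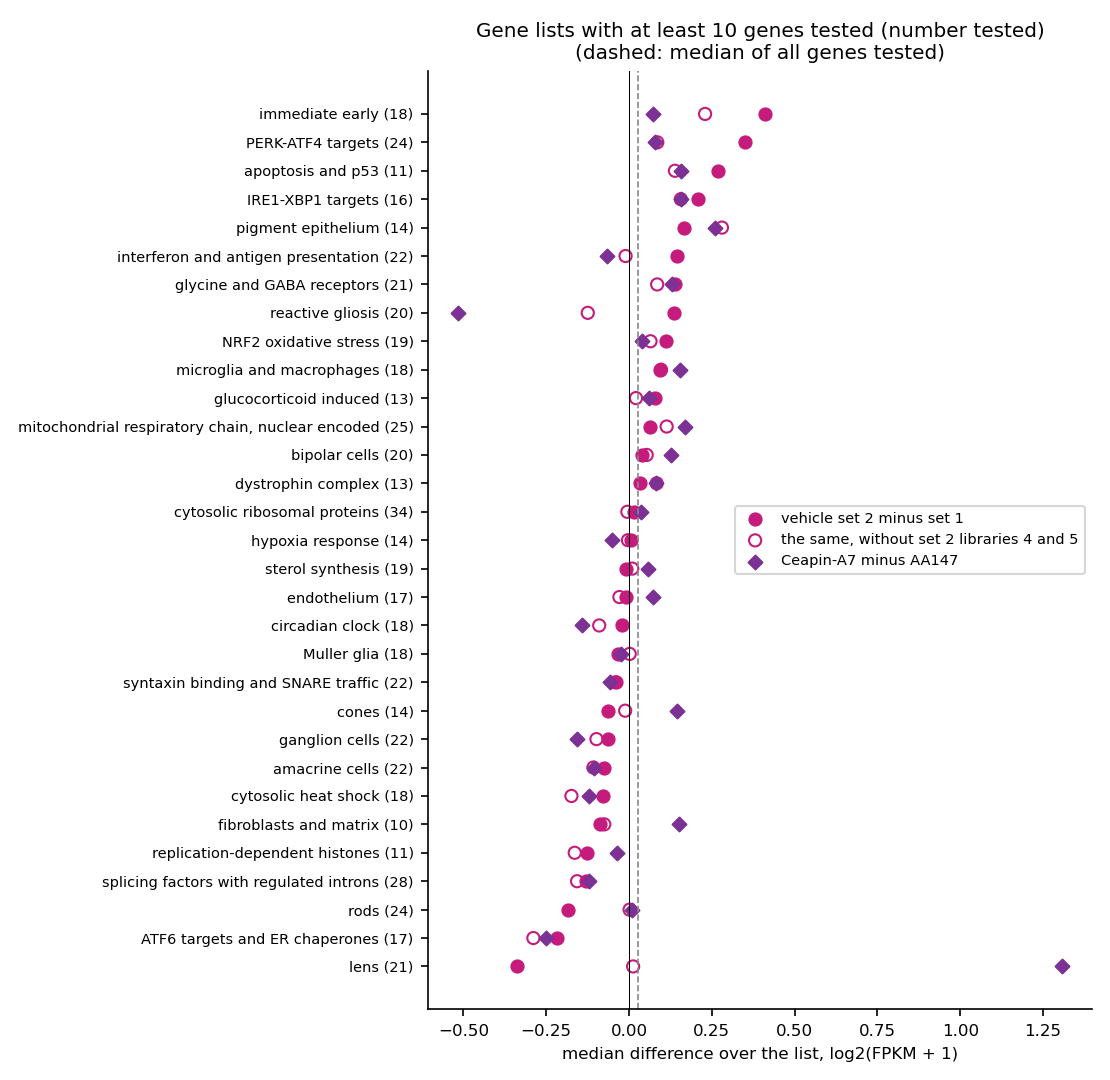
Median difference between vehicle set 2 and vehicle set 1 for each gene list with at least 10 genes tested (filled circles), the same without libraries 4 and 5 of set 2 (open circles), and Ceapin-A7 minus AA147 (diamonds), in log2(FPKM + 1). PERK-ATF4 targets lie at 0.35 in the filled circles and at 0.09 and 0.08 in the open circles and diamonds, while ATF6 targets lie between -0.29 and -0.22 in all 3.

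Of 28 splicing factors with regulated introns, 5 were higher and 13 lower (64.3% called, beside 45.8% of all genes), with a median of -0.13 log2. With the Y-linked covariate 5 were higher and 4 lower. Srsf5 had 335, 332, 338, 308 and 326 FPKM in set 2, against 474, 503, 490.0, 499 and 517 FPKM in set 1. Son, an RNA-binding protein of nuclear speckles, had 83.3, 76.9, 78.9, 86.2 and 78.9 FPKM in set 2, against 46.4, 49.8, 47.6, 45.1 and 47.2 FPKM in set 1. Both genes separated the sets, in opposite directions. The lists that follow stand beside 25.7% higher and 20.1% lower over all genes. Of 34 cytosolic ribosomal protein genes 11 were higher and 5 lower, with a median of 0.02 log2. Rps19 averaged 298 ± 17.2 FPKM in set 2 and 184 ± 14.3 FPKM in set 1, and ribosomal protein genes have many processed pseudogenes that can share fragments. Nuclear-encoded respiratory chain genes had 8 of 25 higher and 3 lower, replication-dependent histones 1 of 11 higher and 4 lower, and small nucleolar RNA host genes 2 of 5 higher and 1 lower. Glycine and GABA receptor genes had 10 of 21 higher and 2 lower, with a median of 0.14 log2.

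Of 18 circadian clock genes tested, 4 were higher (22.2%) and 3 lower (16.7%), beside 25.7% and 20.1% of all genes, with a median of -0.02 log2. Clock, a core activator of the clock, had 17.7, 18.6, 17.2, 18.8 and 18.9 FPKM in set 2, against 9.94, 9.56, 9.59, 10.3 and 9.74 FPKM in set 1. Rorb, a nuclear receptor needed for photoreceptor development, averaged 21.6 ± 3.09 FPKM in set 2 and 39.4 ± 5.68 FPKM in set 1. Both were called the same way between Ceapin-A7 and AA147, at 0.81 and -0.67 log2.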

How the data were processed

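Retina RNA was sequenced as stranded mRNA libraries (DNBSEQ), per the labels' protocols. The authors deposited FPKM values per gene and library, with 1 table per group. HISAT2 2.0.4, RSEM 1.2.18, DESeq2 1.4.5 and the build GRCm39 are named in the submitters' processing notes, without roles. FPKM holds no counts, so values were tested as log2(FPKM + 1) with limma 3.58.1 (R 4.3.3) with an intensity trend, two-sided, on the 2 groups compared. Columns were matched to samples by name and 0 were left out. Gene features came from GENCODE and RefSeq on GRCm38, so no coordinates are given. Depth assumed that 250 bases of a transcript cannot start a fragment, and whole fragments were not recovered. The members, the 43 gene lists and the classes were chosen with earlier results of these data known. Named were the 5 given genes, the 12 largest differences in each direction among called genes whose libraries do not overlap, up to 4 genes of largest difference in a list or class, and the 3 genes most like each given gene. Some genes of the rule are not reported here. A few others were picked after their values were seen. The fit was tested on simulated data. Alternatives changed the pseudocount, the filter, the scaling, the model and the libraries. Tables and plots were made in Python 3.11.15 (matplotlib 3.10.9, pandas 2.3.3, numpy 2.4.6).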

Additional observations from a re-analysis of the deposited data

Results flagged for a closer look

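Within a set of 5 libraries, 6 values of the named genes stood apart from the other 4 by Dixon's test at 95%, which chance flags in about 1 in 20 groups. Library 5 of vehicle set 2 was low for Sntb2 (13.6 FPKM, against 15.5 to 16.03 in the others) and Lnpep (4.35 FPKM, against 6.73 to 7.79) and high for LOC118568297 (14.6 FPKM, against 11.7 to 12.4). Library 1 of vehicle set 2 was low for F830016B08Rik (2.2 FPKM, against 2.77 to 2.92). In vehicle set 1, library 1 was high for Tnpo1 (29.8 FPKM, against 21.2 to 22.8) and library 2 was high for LOC118568718 (1762 FPKM, against 947 to 1087). Each of these genes was called in the same direction without that library.

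Outside the genes tested, 2 genes listed in the set 1 tables alone had signal in vehicle set 1. They were Gm20594 at 476 FPKM and Gm46399 at 2.11 FPKM on average.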

How the results depend on the processing

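The count of 5838 genes lay between 5653 and 6082 with a pseudocount of 0.1, other filters, no trend, all 5 groups in the model, or rescaled libraries, and between 5223 and 5854 with any 1 library left out. Samples with the same number did not deviate together (correlations of -0.28 to 0.09 between the vehicle sets, and 0 of 5 were best matched to their own number), and with the replicate block 5385 genes passed. With a covariate for the Y-linked level 3874 passed. Higher genes were 56.1% of the calls as deposited, 49.6% after median-ratio scaling and 48.8% after quantile normalization, which moved the median of all genes to 0.0031 and -0.0011 log2 from 0.03. Leaving out 1 library gave 6985 to 7325 genes for Ceapin-A7 against AA147, and 0 to 1 for the difference of differences, the 1 without library 5 of vehicle set 2. All 24 named genes stayed called in the same direction under every alternative that tested them, 14 of them under the filter of 1 FPKM in all 10 libraries. The others did not meet that filter. Zbed6, Glra1, Lnpep, Elk4, Zfp804b and Kcna3 were under 1 FPKM in all of set 1, and Vmn1r58 and Tmem45b in all of set 2. These genes entered the test through the other set alone, so the main filter fixed that their sets do not overlap.

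These class medians moved, and the cause was not tested. Median-ratio scaling gave -0.052 log2 for most isoforms, -0.044 for shortest 3′ UTRs, 0.052 for 1 exon and -0.028 for genes inside others. Quantile normalization gave 0.039 for shortest and 0.10 for longest transcripts, -0.052 for most isoforms, -0.043 for shortest and 0.11 for longest 3′ UTRs, 0.11 for lowest GC, 0.044 for 1 exon and -0.043 for genes inside others. Without libraries 4 and 5 of set 2 the medians were 0.16 for IRE1-XBP1 targets, 0.23 for immediate early genes and 0.0018 for rods. With the Y-linked covariate they were 0.19 for longest transcripts, 0.0046 for most isoforms, -0.040 for shortest and 0.20 for longest 3′ UTRs, 0.037 for small RNA hosts, -0.051 for pseudogenes, 0.83 for PERK-ATF4 targets, 0.11 for heat shock genes, 0.60 for immediate early genes and -0.44 for rods. Most isoforms and heat shock genes changed sign there, where the median of all genes was 0.045 log2. In that fit library 5 alone of set 2 holds Y-linked RNA, so the covariate rests on it.

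Depth limits the low genes, and 1 FPKM was the floor of the test. No interval from counts is given, since FPKM holds none.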
